A study of Homo sapiens with 18 samples.

Results

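Methionine sulfoxide reductases repair oxidised methionine in proteins. MSRA reduces the S form of methionine sulfoxide and the MSRB enzymes reduce the R form. MSRB1, found in the cytosol and nucleus, is a selenoprotein: a UGA codon in its mRNA is read as selenocysteine, which requires a SECIS element in the 3′ untranslated region and SBP2, the protein that binds this element. MSRA, MSRB2 (mitochondrial) and MSRB3 (endoplasmic reticulum and mitochondria) use cysteine in place of selenocysteine, so this family sets a selenoprotein mRNA beside mRNAs of related enzymes that need no selenocysteine insertion. The 4 genes were taken by Ensembl ID from the 58676 IDs of the deposited count table: MSRB1 (ENSG00000198736), MSRA (ENSG00000175806), MSRB2 (ENSG00000148450) and MSRB3 (ENSG00000174099). They were chosen by name as the members of this enzyme family, with earlier results of these data known, and all 4 passed the low-count filters used below.

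The samples were lysates of HEK293T, a human embryonic kidney line that is easily transfected (the growth protocol leaves out the T). Cells transiently received Flag-SBP2 with 100 nM sodium selenite added 4 h after transfection, Flag-SBP2 without selenite, or the Flag vector alone as control. All were harvested at 48 h. No control received selenite, so every comparison of SBP2 and selenite with control changes Flag-SBP2 and selenite together. Each treatment had 3 biological replicates per the series design, each with a library of RNA precipitated with anti-Flag beads (RNA immunoprecipitation, RIP) and a library of the lysate before precipitation (input), which makes 6 groups and 18 libraries. Tagged SBP2 was added to cells that keep their own SECISBP2 gene, and the labels do not say whether replicates were transfected separately, so p-values measure the spread between these samples, which may be technical.

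Library totals ran from 15.2 M to 29.9 M counts, and 17678 IDs passed the low-count filter over the 18 libraries. Every pair of replicates differed by more than counting noise, with a chi-square over its degrees of freedom of 4.81 to 27.3, and each library was kept as a sample. The files do not pair IDs with symbols, so the transfected gene, cell line markers and other selenoprotein genes were not analysed here by name. Levels below are CPM, counts scaled to a fixed library total with TMM factors, so each is a share of its library and the absolute amount of RNA on the beads was not measured. Levels were not compared between genes, since transcript lengths were not used here.

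On GRCh38.p14 the RefSeq gene table places MSRB1 on chromosome 16 from 1938229 to 1943199 (minus strand), MSRB2 on chromosome 10 from 23095579 to 23122013 (plus strand), MSRB3 on chromosome 12 from 65278683 to 65466907 (plus strand) and MSRA on chromosome 8 from 10054292 to 10428891. All 4 are annotated as protein-coding. MSRB1 shares 406 bp of its span with the long noncoding RNA LOC124903625. MSRB3 shares 91 bp with the antisense-named MSRB3-AS1, 6254 bp with the long noncoding RNA LOC124902954 and 1403 bp with the pseudogene KRT18P60. MSRA shares 12089 bp and 1104 bp with the long noncoding RNAs LOC124901885 and LOC124901886, and 874 bp with the pseudogene LOC100420053. In all, 1 other gene overlaps MSRB1, 3 overlap MSRA, 3 overlap MSRB3 and 0 overlap MSRB2. Whether counting used strand is not given in the sources used here, so reads of such overlaps cannot be told apart. The table also lists a pseudogene named after MSRB1, MSRB1P1 on chromosome 19, and how reads that match both genes were counted is not known here.

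Of the 4 genes, MSRB1 was the 1 called higher in precipitates of Flag-SBP2. Its mRNA was above input in every Flag-SBP2 precipitate and below input in every control precipitate. The share of all IDs with this pattern was not computed. In RIP libraries MSRB1 was at 178, 161 and 184 CPM in SBP2 lysates with selenite, at 243, 230 and 212 CPM in SBP2 lysates without selenite, and at 23.8, 21.7 and 19.4 CPM in control lysates. In inputs it was at 68.5, 70.3 and 85.2 CPM with SBP2 and selenite, at 78.3, 72.6 and 77.8 CPM with SBP2, and at 81.0, 84.8 and 79.6 CPM in control. The 3 groups of RIP libraries did not overlap with one another, as in 59.1% of IDs for SBP2 with selenite against control, 64.5% for SBP2 against control and 16.4% for SBP2 with selenite against SBP2, whereas the inputs of SBP2 lysates with selenite spanned those of both other treatments. Counts behind these values ran from 578 to 6146 per library, so counting error alone was 1.28 to 4.16% of a value.

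**Figure D1:**
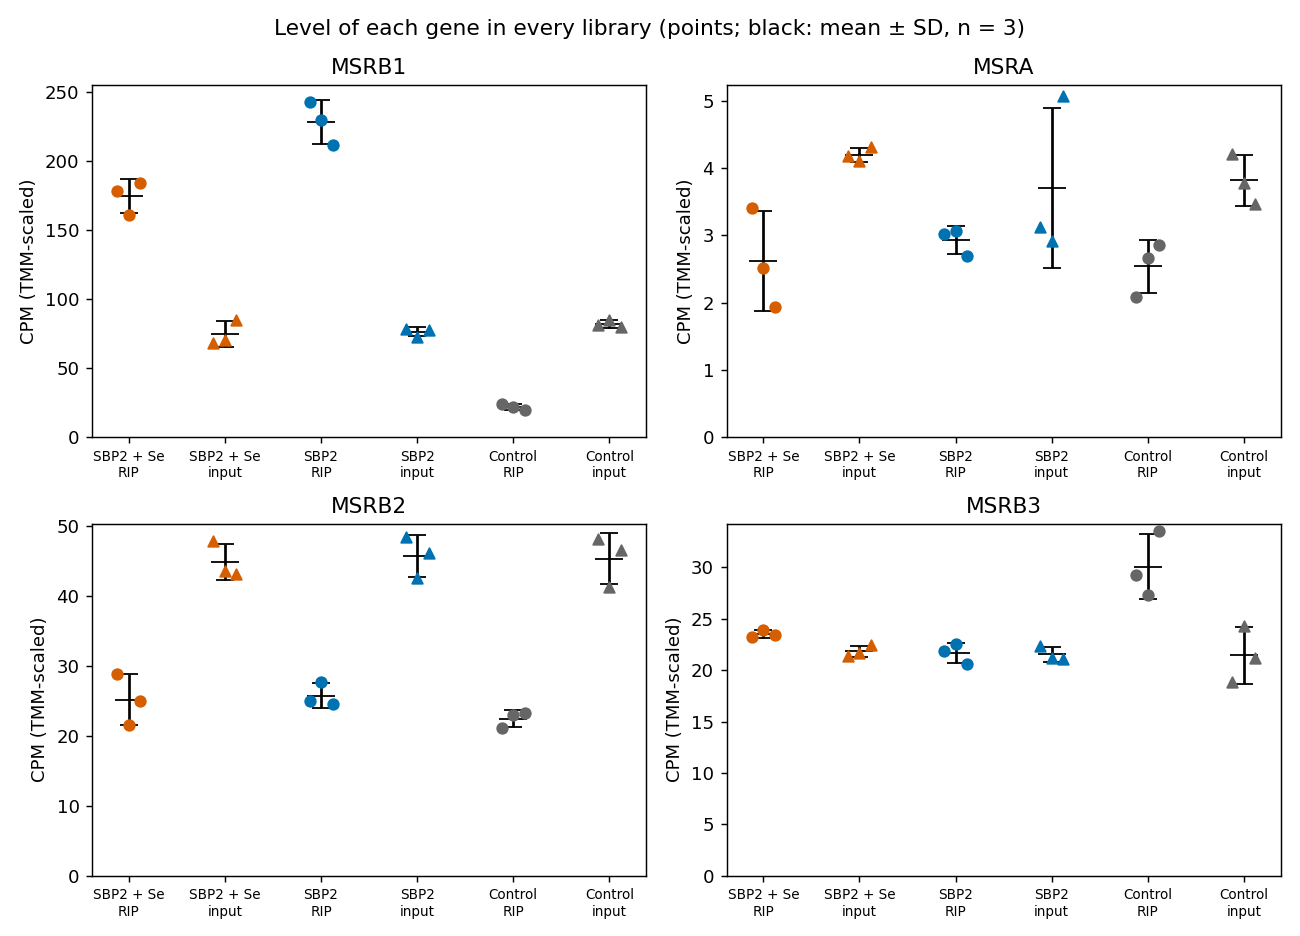
Level of MSRB1, MSRA, MSRB2 and MSRB3 in CPM (TMM-scaled, linear axes from 0) in each of the 18 libraries, with RIP as circles, input as triangles, and the mean ± SD of 3 replicates in black. MSRB1 averaged 174 CPM in RIP with SBP2 and selenite, 228 CPM with SBP2 and 21.6 CPM in control, and the other genes show no such gap.

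As RIP-to-input ratios of single lysates, MSRB1 stood at 2.60, 2.28 and 2.16 with SBP2 and selenite, at 3.10, 3.16 and 2.72 with SBP2, and at 0.295, 0.257 and 0.244 in control. The ratios of SBP2 lysates lay above those of all control lysates, as for 4314 of 17678 IDs with selenite and 4834 without. In either direction, groups did not overlap in 43.3% of IDs with selenite and 51.2% without. RIP against input was higher with SBP2 and selenite by 1.22 on the log2 scale (SE 0.0929, edgeR adjusted p = 2.6e-11) and with SBP2 by 1.58 (SE 0.0935, edgeR adjusted p = 2.41e-13). In control lysates RIP was lower than input, at a log2 change of -1.92 (SE 0.0976, edgeR adjusted p = 6.63e-15). Calls in these 3 comparisons were common, made for 62.2%, 62% and 71.3% of all 17678 IDs. Of the 4 genes, 1 was called higher (30.7% of IDs) and 2 lower (31.6%) with SBP2 and selenite, 1 higher (30.3%) and 1 lower (31.7%) with SBP2, and 1 higher (31.5%) and 3 lower (39.8%) in control. The control value was itself far down the distribution: 7.70% of IDs had a lower RIP-to-input change in control.

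**Figure D2:**
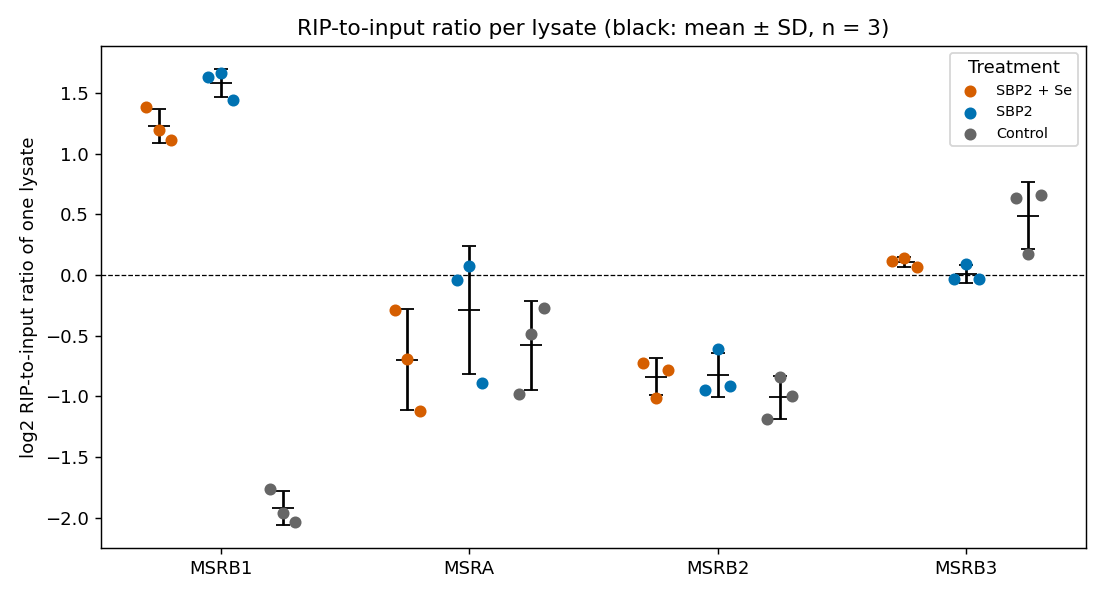
Log2 RIP-to-input ratio of each lysate (points) for the 4 genes and 3 treatments, with mean ± SD of 3 lysates in black and a dashed line at equal RIP and input. MSRB1 averaged 1.23 with SBP2 and selenite, 1.58 with SBP2 and -1.92 in control, while MSRA and MSRB2 averaged below 0 in each treatment.

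Enrichment over control, the RIP-to-input change with SBP2 less that of the control, sets recovery beside that of the same beads without Flag-SBP2. For MSRB1 it was 3.14 on the log2 scale with selenite (8.84-fold, 95% interval 2.87 to 3.42, SE 0.135, edgeR adjusted p = 2.74e-15) and 3.50 without selenite (11.3-fold, 95% interval 3.22 to 3.78, SE 0.135, edgeR adjusted p = 2.95e-16). Both comparisons use the same control lysates, which had no selenite. The comparison with selenite therefore differs from control in both Flag-SBP2 and selenite. MSRB1 ranked 55 of 17678 IDs from the highest with selenite and 47 without, above 99.7% of IDs in each. By RIP against input alone its ranks were 832 and 391, and the ranks by enrichment also take in its low control ratio. Compared directly, SBP2 RIP libraries against control RIP libraries gave log2 changes of 3.01 with selenite and 3.40 without (edgeR adjusted p = 5.36e-18 and 5.12e-19), in comparisons where 51% and 56.2% of IDs were called. The inputs were left out of these comparisons but still entered the filter, scaling and spread of the model.

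Of the 4 genes, 1 (MSRB1) was called higher by enrichment over control and 1 (MSRB3) lower, both with and without selenite. With selenite 33.7% of all IDs were called, 19.3% higher and 14.4% lower, and without selenite 39.9%, 21.7% higher and 18.1% lower, so a count of 1 in 4 each way is near the background. With library size alone the split over all IDs turned, to 2670 higher and 3582 lower with selenite (3416 and 2540 with TMM) and to 3007 and 4368 without (3844 and 3201). DESeq2-type factors gave 2784 higher and 3397 lower with selenite, and under both scalings the calls of MSRB1 and MSRB3 held. The median log2 enrichment of the 4 genes was 0.042 with selenite, beside 0.026 over all IDs, and 0.20 without selenite, beside 0.022.

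**Figure D3:**
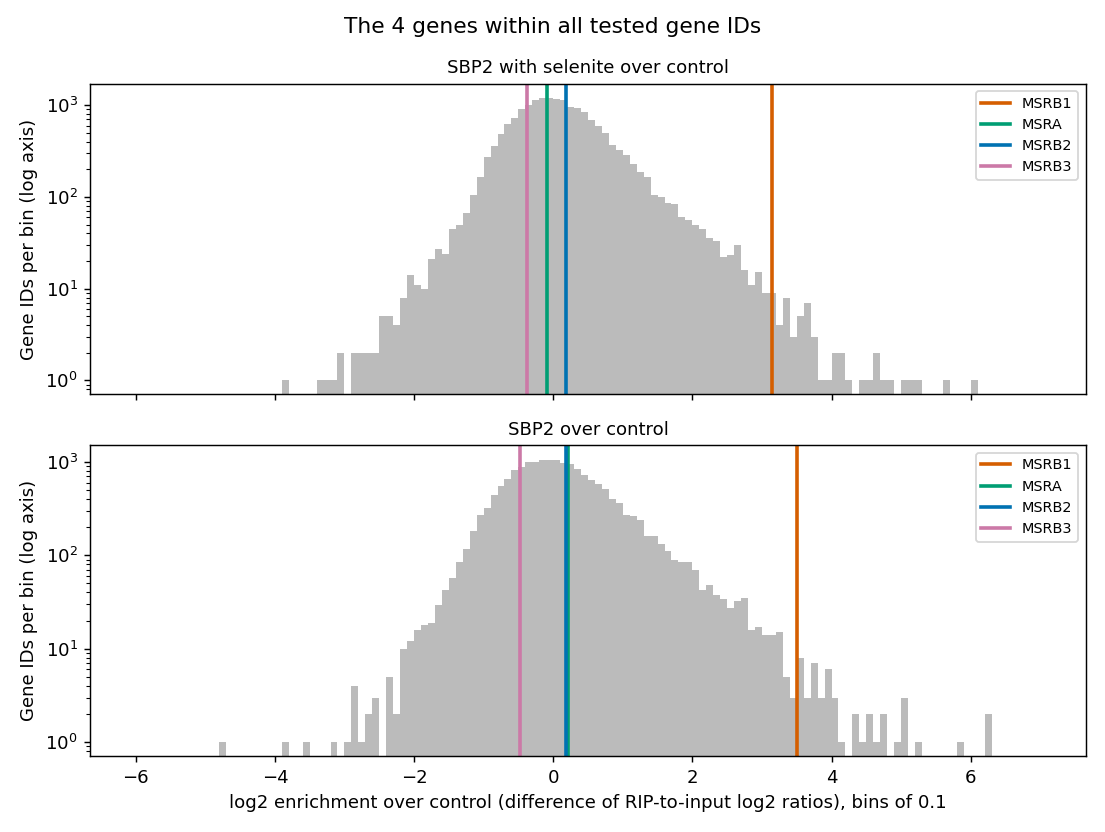
Number of gene IDs (log axis) by log2 enrichment over control in bins of 0.1, with coloured lines at the 4 genes, for SBP2 with selenite (top) and SBP2 (bottom). MSRB1 lies in the upper tail at 3.14 and 3.50, and the other genes lie in the bulk, where MSRA at 0.21 and MSRB2 at 0.19 coincide in the bottom panel.

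MSRB2, the mitochondrial R-form reductase, was lower in RIP than in input in every treatment. It was at 28.9, 21.6 and 25.03 CPM in RIP with SBP2 and selenite, at 25.05, 27.7 and 24.5 CPM with SBP2, and at 21.1, 23.0 and 23.3 CPM in control. Its inputs lay between 41.3 and 48.4 CPM, above every RIP library. The share of all IDs separated in this way was not computed. Calls between RIP and input were made for 62.2% of IDs with selenite, 62% with SBP2 and 71.3% in control. RIP against input was -0.83 on the log2 scale with selenite (SE 0.104, edgeR adjusted p = 1.47e-07), -0.83 with SBP2 (SE 0.103, edgeR adjusted p = 1.57e-07) and -1.01 in control (SE 0.104, edgeR adjusted p = 3.33e-09). Enrichment over control did not pass, at 0.18 with selenite (95% interval -0.12 to 0.48, edgeR adjusted p = 0.383) and 0.19 without (95% interval -0.11 to 0.49, edgeR adjusted p = 0.336). These intervals correspond to 0.918- to 1.39-fold and 0.924- to 1.40-fold, below the whole interval of MSRB1.

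MSRA, the S-form reductase, had the fewest counts, 39 to 110 per library, with a counting error of 9.53 to 16.01%. It was at 3.41, 2.51 and 1.93 CPM in RIP with SBP2 and selenite, at 3.03, 3.07 and 2.69 CPM with SBP2, and at 2.09, 2.67 and 2.86 CPM in control. These RIP groups overlapped throughout, and the inputs ran from 2.92 to 5.08 CPM. RIP against input was -0.67 with selenite (SE 0.211, edgeR adjusted p = 0.00788), -0.37 with SBP2, which did not pass (SE 0.209, edgeR adjusted p = 0.132), and -0.58 in control (SE 0.211, edgeR adjusted p = 0.0171). The call with selenite was lost without SBP2 and selenite replicate 3 (edgeR adjusted p = 0.11), and the control call without control replicate 1 (edgeR adjusted p = 0.212) or 2 (edgeR adjusted p = 0.062) and with library size alone (edgeR adjusted p = 0.102). Enrichment over control was -0.094 with selenite (95% interval -0.71 to 0.52, edgeR adjusted p = 0.845) and 0.21 without (95% interval -0.40 to 0.82, edgeR adjusted p = 0.612). Without selenite the interval spans 0.758- to 1.77-fold, and the value was 0.0040 without control replicate 1 and 0.56 without SBP2 replicate 3, neither of which passed.

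MSRB3, the R-form reductase of the endoplasmic reticulum, was lower in RIP with SBP2 than in control RIP. It was at 23.2, 23.9 and 23.4 CPM in RIP with SBP2 and selenite, at 21.9, 22.5 and 20.5 CPM with SBP2, and at 29.3, 27.3 and 33.5 CPM in control. All 6 SBP2 RIP libraries were below all 3 control RIP libraries, but RIP levels did not overlap with control, in either direction, in most IDs (59.1% with selenite and 64.5% without). The inputs of all treatments overlapped between 18.8 and 24.3 CPM. Its log2 RIP-to-input ratios were 0.12, 0.14 and 0.061 with SBP2 and selenite, -0.031, 0.090 and -0.037 with SBP2, and 0.63, 0.17 and 0.66 in control, without overlap between SBP2 and control lysates. In either direction this held for 43.3% of IDs with selenite and 51.2% without. Ratios lay below control for 3334 of 17678 IDs with selenite and 4209 without. In control lysates RIP was higher than input by 0.48 on the log2 scale (SE 0.1, edgeR adjusted p = 0.000132). In SBP2 lysates RIP and input differed by 0.11 with selenite (95% interval -0.10 to 0.32, edgeR adjusted p = 0.372) and by 0.0086 without (95% interval -0.20 to 0.22, edgeR adjusted p = 0.948), the last with its sign turned by upper-quartile scaling (-0.0090) and by a stricter low-count filter (-0.0048).

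Enrichment over control of MSRB3 was -0.38 on the log2 scale with selenite (SE 0.142, edgeR adjusted p = 0.043) and -0.48 without (SE 0.143, edgeR adjusted p = 0.00946). The call with selenite was near the threshold: it was lost without control replicate 1 (edgeR adjusted p = 0.106) or 3 (0.158) and without SBP2 and selenite replicate 1 (0.0932), 2 (0.0736) or 3 (0.0905). The values in these fits were -0.33, -0.30, -0.38, -0.41 and -0.37 in the same order, with SEs of 0.153 to 0.169. Without selenite the call was lost, at an edgeR adjusted p of 0.0504, when control replicate 3 was left out. In the direct comparison of RIP with RIP, in the same model, the changes were -0.35 with selenite and -0.47 without (edgeR adjusted p = 0.00382 and 0.000208).

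**Figure D4:**
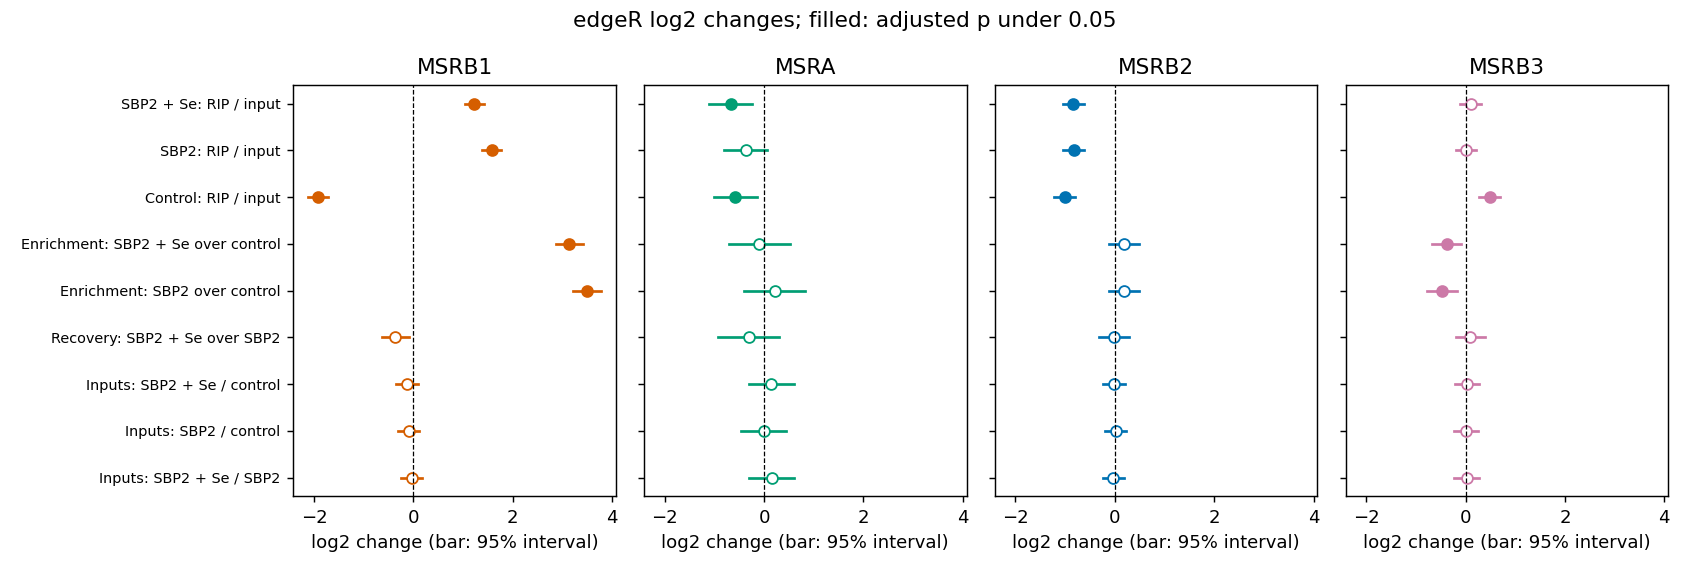
edgeR log2 changes (points) with 95% intervals (bars) of the 4 genes in 9 comparisons, filled where the adjusted p was under 0.05. MSRB1 passed in the 3 comparisons of RIP with input and in both enrichments, and all 4 genes have intervals that include 0 in the 3 comparisons of inputs.

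The gap between MSRB1 and its relatives was tested lysate by lysate. The log2 RIP-to-input ratio of MSRB1 less that of MSRA averaged 1.90 ± 0.316 over the 6 SBP2 lysates with or without selenite (SD, n = 6) and -1.34 ± 0.504 over the 3 control lysates (SD, n = 3), a difference of 3.24. Against MSRB2 the means were 2.24 ± 0.233 and -0.91 ± 0.296, a difference of 3.15, and against MSRB3 they were 1.35 ± 0.265 and -2.41 ± 0.281, a difference of 3.75. Each difference had a two-sided exact permutation p of 0.0119, the smallest that 6 against 3 lysates allow, and 0.0476 after Benjamini-Hochberg adjustment over the 12 such comparisons computed. Such a p says that the 6 and 3 lysates did not overlap, and the share of all IDs separated in this way was not computed. By RIP-to-input ratio, 43.3% of IDs with selenite and 51.2% without did not overlap with control at 3 against 3. These tests share the MSRB1 ratios and the control lysates, so they are not independent. The adjusted value came under 0.05 only because all 3 differences were at the smallest p. Permuted within replicate number, which allows 27 arrangements, each difference had an exact p of 0.037, the smallest possible, and did not pass after adjustment (0.148). No lower adjusted value was possible there, so this permutation could not have passed and does not decide. With 3 lysates a side the smallest two-sided exact p is 0.1, so the differences of 2.98 to 3.53 with selenite and 3.21 to 3.98 without could not pass alone.

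MSRB1 took up 77.3 ± 1.15% of the reads of the 4 genes in RIP with SBP2 and selenite, 81.9 ± 0.93% with SBP2 and 28.3 ± 3.42% in control (SD, n = 3 each). In inputs its share was 51.2 ± 3.41%, 51.8 ± 0.368% and 53.7 ± 1.17% in the same order of treatments (SD, n = 3 each). The means of the input shares differed by less than the SD of the widest group, while the RIP shares of control lay far below those of both SBP2 groups.

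Whether selenite altered recovery with SBP2 was tested as the RIP-to-input change with selenite less that without. MSRB1 had log2 ratios of 1.38, 1.19 and 1.11 with selenite and 1.63, 1.66 and 1.44 without, and the groups did not overlap. That was the case for 13% of IDs in either direction, with selenite lower for 1374 of 17678 IDs. The difference was -0.36 (95% interval -0.63 to -0.090, SE 0.13, unadjusted p = 0.0108) and did not pass over all IDs (edgeR adjusted p = 0.989). In that comparison edgeR, DESeq2 and limma voom each called 0 of 17678 IDs (0% called), and 800 IDs had an unadjusted edgeR p under 0.05. RIP compared directly with RIP, in the same model, gave -0.39 for MSRB1 (95% interval -0.57 to -0.20, edgeR adjusted p = 0.12), in a comparison with 1 ID called (0.00566%). The differences of MSRA, MSRB2 and MSRB3 were -0.31, -0.0083 and 0.098 (edgeR adjusted p at least 0.995 each), and the sign for MSRB2 turned with library size alone (0.0073). The MSRA value was -0.68 without SBP2 replicate 3, -0.54 without SBP2 and selenite replicate 1, and between -0.18 and -0.12 without SBP2 replicate 1 or 2 or SBP2 and selenite replicate 3.

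Levels in the lysate itself did not pass any test for the 4 genes. In bulk lysates fewer cells that express a gene and less RNA per cell cannot be told apart. With SBP2 and selenite against control inputs, MSRB1 averaged 74.6 ± 9.15 CPM and 81.8 ± 2.7 CPM (SD, n = 3), a log2 change of -0.13 (95% interval -0.34 to 0.087, edgeR adjusted p = 0.72). SBP2 inputs averaged 76.2 ± 3.17 CPM (SD, n = 3), a log2 change of -0.096 from control (95% interval -0.31 to 0.12, edgeR adjusted p = 0.672). With selenite against without it, SBP2 inputs differed by -0.031 on the log2 scale (95% interval -0.25 to 0.18, edgeR adjusted p = 1), with a sign that turned without SBP2 and selenite replicate 1 (0.031) or 2 (0.010). Among all 16616 IDs tested, 0.554%, 0.879% and 0.00602% were called in these 3 comparisons, counts of 92, 146 and 1, which became 1130, 2734 and 37 in fits blocked on replicate number, again with 0 of the 4 genes. The other 3 genes had log2 changes between -0.028 and 0.16 in them. The highest, of MSRA with selenite against SBP2, was 0.47 without SBP2 replicate 3, 0.049 without SBP2 replicate 1 and 0.0092 without SBP2 replicate 2. The widest interval was that of MSRA for SBP2 inputs against control (-0.47 to 0.45).

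**Figure D5:**
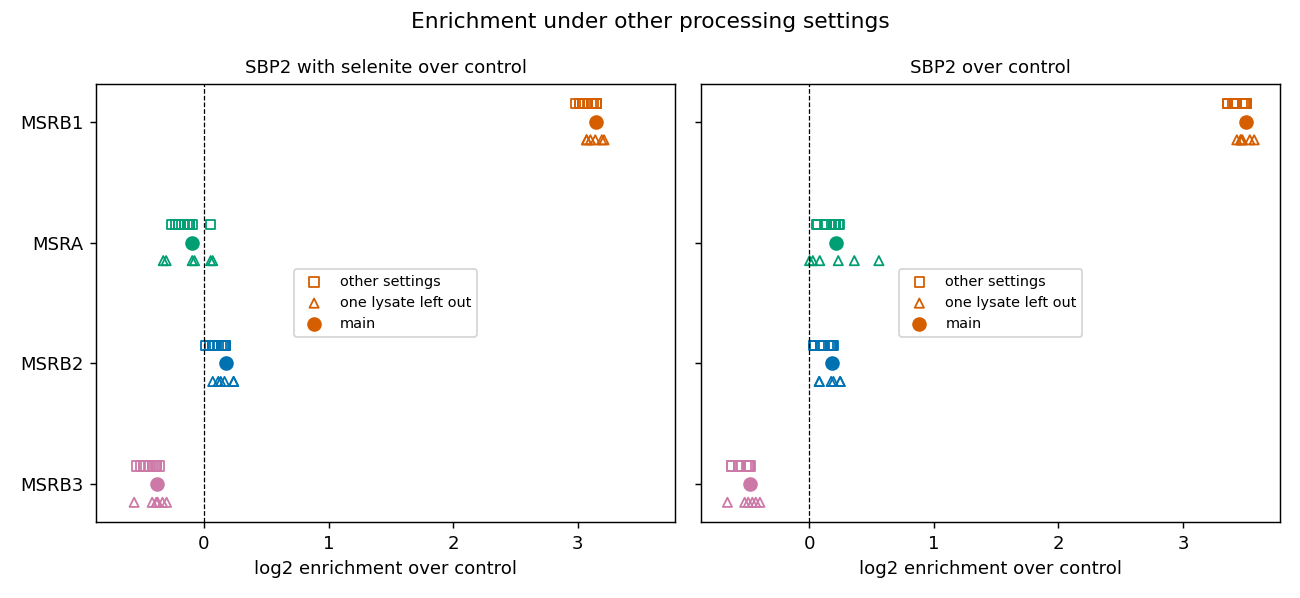
Log2 enrichment over control of the 4 genes under the main processing (filled circles), under other settings (squares) and with 1 lysate left out (triangles), for SBP2 with selenite (left) and SBP2 (right). MSRB1 stays between 2.98 and 3.57 in both panels, MSRB3 stays below 0, and MSRA crosses 0 with selenite.

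By Pearson correlation of log2 CPM over the 18 libraries, the IDs most like MSRB1 among 13204 other IDs whose log2 CPM averaged at least 1 over the libraries were ENSG00000125991 (r = 0.997) and ENSG00000228305 (r = 0.996). ENSG00000125991 averaged 716 ± 48.0 CPM in RIP with SBP2 and selenite, 924 ± 20.6 CPM with SBP2 and 96.5 ± 11.4 CPM in control (SD, n = 3 each), and its enrichment over control was 3.03 with and 3.39 without selenite. ENSG00000228305 averaged 101 ± 13.4, 128 ± 2.02 and 10.7 ± 2.17 CPM in the same order, with enrichments of 3.38 and 3.76. The relatives followed other IDs, MSRB2 being most like ENSG00000119632 (r = 0.99) and MSRB3 most like ENSG00000141905 (r = 0.925), while the closest ID to MSRA reached 0.866. Between the family members MSRB1 correlated with MSRA at 0.016, with MSRB2 at -0.0048 and with MSRB3 at -0.64. MSRB3 also correlated negatively with MSRA (-0.49) and MSRB2 (-0.62), while MSRA correlated with MSRB2 at 0.79. These correlations describe 6 groups of 3 libraries and share each library's depth.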

How the data were processed

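The deposited table holds raw counts, whole numbers for each Ensembl ID, from 18 RIP and input libraries. Trim Galore 0.6.6, STAR 2.7.6a, featureCounts 2.0.1 and GRCh38 (hg38) are named per the submitters' processing notes. No source used here states the annotation, whether strand was used, or how multi-mapped reads were handled. Samples were grouped by title.

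The 4 genes, the lists and the tests were chosen with earlier results of these data known. Named IDs were the 4 genes and, by correlation over 18 libraries, the 2 IDs most like MSRB1 and the 1 most like each relative. None of the 59792 RefSeq genes used for names carried an Ensembl ID, so the 4 gene lists prepared by symbol and the cell line markers were not analysed here, and no SECIS sequence is shown.

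Counts passing filterByExpr (minimum count 10, minimum total 15) were TMM-scaled and tested over all IDs with the two-sided quasi-likelihood test of edgeR 4.0.16 (R 4.3.3, Benjamini-Hochberg, threshold 0.05). The code for enrichment was first run on simulated counts with changes set in SBP2 RIP alone. Those counts lacked the wide RIP-to-input changes and the lysate pairing of these data. RIP comparisons used 1 model of 6 group means over 18 libraries, and input comparisons used the 9 inputs (16616 IDs). Lysate ratios were differences of log2 CPM with a prior count of 2. Alternatives were DESeq2 1.42.0, limma voom 3.58.1, other scalings and filters, blocks and left-out replicates.

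Pairing was checked by correlating deviations from group means. The input and RIP of 1 lysate are paired by the protocol (correlations 0.0012 to 0.19). Same-numbered inputs with SBP2 and selenite correlated with SBP2 inputs at 0.11 to 0.19 and with control inputs at 0.13 to 0.31, above the limit of 0.1, and SBP2 with control inputs at 0.085 to 0.22. No molecular identifiers are named in the labels, so the counting errors given cover counting alone.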

Additional observations from a re-analysis of the deposited data

How the results depend on the processing

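The replicate block, by lysate for RIP comparisons or by replicate number for all, changed no edgeR call of the 4 genes (MSRB1 enrichment without selenite 3.50 with either). The block on replicate number moved the count of called IDs for inputs to 2734 with SBP2 against control (main 146), 37 with selenite against SBP2 (1) and 1130 with SBP2 and selenite against control (92). MSRB1 kept its direction and side of the threshold in 136 of 138 recomputed values. The other 2 were its input change with selenite (main -0.031), which turned to 0.031 and 0.010 without SBP2 and selenite replicates 1 and 2 and ranged from -0.14 to 0.031 over all left-out lysates. Its enrichment ranged from 3.35 to 3.50 over other settings and 3.43 to 3.57 over left-out lysates without selenite, and from 2.98 to 3.15 and 3.07 to 3.21 with selenite. Leaving out lysates gave MSRB3 enrichments of -0.65 to -0.39 without and -0.56 to -0.30 with selenite, and MSRA 0.0040 to 0.56 without and -0.33 to 0.071 with selenite. The MSRB3 enrichment with selenite no longer passed in a fit over the compared groups (-0.41, adjusted p = 0.0557). MSRA in control RIP no longer passed with DESeq2-type factors (0.0511), the DESeq2 test (0.0538) or no low-count filter (0.133).

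Signs turned only in values that did not pass. MSRA gave 0.052 in RIP against RIP with selenite. Its SBP2 input change gave 0.0059 with DESeq2-type factors, 0.023 with upper-quartile factors, 0.013 with library size alone, 0.0080 without a filter and 0.00045 with DESeq2. The MSRB2 input change with SBP2 and selenite against control gave 0.0023, 0.025, 0.032, 0.0061 and 0.0025 under the same settings, and its selenite effect 0.0073 with library size alone. MSRB3 in SBP2 RIP gave -0.0090 with upper-quartile factors and -0.0048 with a stricter filter. With lysates left out, MSRA in SBP2 RIP ranged from -0.55 to 0.014 and in SBP2 inputs from -0.33 to 0.14, MSRB2 from -0.071 to 0.098 for the selenite effect, and from -0.046 to 0.068, -0.076 to 0.012 and -0.075 to 0.038 in inputs, and MSRB3 from -0.030 to 0.032 in SBP2 RIP and from -0.067 to 0.11, -0.0025 to 0.045 and -0.049 to 0.13 in inputs (SBP2 against control, selenite against SBP2, SBP2 and selenite against control). The cause was not tested.

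MSRB1 less the mean of its relatives, with against without selenite, was -0.24, and -0.39, -0.20 or -0.14 when MSRA, MSRB2 or MSRB3 was left out of the mean (left-out lysates -0.31 to -0.19). Permuted within replicate number (a block chosen after seeing the data), the differences from MSRA, MSRB2 and MSRB3 (3.24, 3.15 and 3.75) no longer passed. An exact adjusted p below their 0.148 was impossible, so this cannot decide. Over all IDs, the median shifted by 0.18 (library size alone) or 0.11 (DESeq2-type factors) in control RIP against input, by -0.15 (library size) in the enrichment without selenite and by -0.13 or -0.11 in that with selenite, and with library size MSRB1 gave -1.73, 3.35 and 3.01 there. The control split became 6600 higher and 5952 lower with library size (5571 and 7039 with TMM). Counts of called IDs moved over 1.5 times, to 9024 for RIP against RIP with selenite over control (main 5956) and to 1 (main 0) for the selenite effect without a filter and for RIP against RIP. In inputs of SBP2 against control they moved to 681 without a filter, 331 with DESeq2 and 702 over all 18 libraries, in those with selenite against SBP2 to 27, 3 and 3, and in those of SBP2 and selenite against control to 329, 206 and 359. A fit over the compared groups gave 2 for selenite against SBP2 and 32 for SBP2 and selenite against control. Without single libraries these counts ranged from 21 to 737, 1 to 1 and 23 to 134. MSRA had the fewest counts (39 to 110).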

Other observations

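MSRA in SBP2 inputs had 46, 49 and 110 counts in replicates 1, 2 and 3, or 3.12, 2.92 and 5.08 CPM. Their coefficient of variation was 32.2%, against a mean counting error of 12.9%. In the inputs with SBP2 and selenite the same gene varied by 2.55%, less than its mean counting error of 11.6%. Without SBP2 replicate 3 the log2 change of MSRA in SBP2 inputs against control inputs was -0.33 in place of -0.0070, and neither value passed.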
